A study of Mus musculus with 8 samples.

Results

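The genes of ferritin and cellular iron handling were followed across low-density and high-density neutrophils of wild-type and H2R-deficient mice. The set held 10 genes, chosen by symbol, of 49315 rows in the count tables: the ferritin subunits Fth1 and Ftl1, the ferritin receptor Ncoa4, the iron importers Tfrc, Slc11a1 and Slc11a2, the exporter Slc40a1, the haem-degrading enzyme Hmox1, and the iron regulatory proteins Ireb2 and Aco1. All 10 passed the filter on low counts that left 14909 genes for testing. Fth1 was included because it is among the most abundant transcripts in every library, so its high level and rank are described and not tested.

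Each library came from peritoneal neutrophils of C57BL/6 mice, an inbred strain, 2 months of age, drawn into the cavity with casein, a milk protein. All 4 groups share that strain, age and elicitation, and each group has 2 libraries. They are wild-type high-density (libraries 2 and 4), wild-type low-density (2 and 4), H2R-deficient high-density (1 and 2) and H2R-deficient low-density neutrophils (1 and 2). H2R is the histamine H2 receptor, encoded by Hrh2 and coupled to Gs and cyclic AMP, and the labels give neither the deleted part of the gene nor whether the deficiency is limited to a cell type. Nothing in the labels says that a group's libraries were made from different animals. A p-value here therefore reflects the spread of these 8 libraries alone, and that spread may be technical.

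Free iron is toxic to cells, and most cells hold their reserve inside ferritin, a hollow shell built from heavy chains, which oxidise iron, and light chains, which help to mineralise it. The iron regulatory proteins, encoded by Aco1 (IRP1, which doubles as the cytosolic aconitase) and Ireb2 (IRP2), bind iron-responsive elements (IREs), hairpins in messenger RNAs, when iron is scarce. Binding near the start of a message blocks its translation, as for ferritin, and binding in the 3' UTR of Tfrc protects the message from decay, so ferritin protein is largely set after transcription and is not measured by these counts. Neutrophils withhold iron from microbes with lactoferrin and lipocalin and carry the phagosomal metal transporter encoded by Slc11a1, of which C57BL/6 mice carry a natural loss-of-function allele.

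IREs are carried by some of these genes. They were searched for in the GENCODE M21 transcripts (GRCm38), on the transcript strand, as an unpaired C, 5 bases, the loop CAGTGN and 5 bases that pair with the first 5 in at least 4 positions, G with T allowed. Each is printed 5' to 3' over 30 bases, with the unpaired C and the 6-base loop in capitals. Those in 5' UTRs were found in 3 of the 10 genes, on chr19:9982732-9982761 (plus strand), chr7:45459778-45459807 (minus strand) and chr1:45925464-45925493 (minus strand):
Fth1: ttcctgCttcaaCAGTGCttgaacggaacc
Ftl1: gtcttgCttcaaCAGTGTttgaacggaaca
Slc40a1: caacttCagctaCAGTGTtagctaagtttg

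Fth1 and Ftl1 were identical at 26 of the 30 bases, and each was identical to Slc40a1 at 13. The 3' UTR of Tfrc held 4 matches on the plus strand of chromosome 16, at chr16:32631219-32631248, chr16:32631598-32631627, chr16:32631663-32631692 and chr16:32631710-32631739, in that order:
Tfrc 1: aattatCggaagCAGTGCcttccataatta
Tfrc 2: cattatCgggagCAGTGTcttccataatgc
Tfrc 3: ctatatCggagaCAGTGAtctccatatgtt
Tfrc 4: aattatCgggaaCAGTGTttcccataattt

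One Slc11a2 transcript held a match with 4 of 5 arm pairs in its 3' UTR, at chr15:100395152-100395181 on the minus strand:
Slc11a2: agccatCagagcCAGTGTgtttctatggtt

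The same search found a match in a 5' UTR of 203 of 20916 genes (0.971%) and in a 3' UTR of 870 of 21707 genes (4.01%). A match is a description of letters, and Slc11a1 held 1 that lay in its coding sequence or spanned its edge.

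Libraries held 19862716 to 24199215 counts, so that 3 counts, taken as the floor, equal 0.124 to 0.151 CPM, the usual count scaled to a fixed library size, for counting error only. Unless stated, CPM below are over library sizes scaled by TMM, a method that assumes most genes do not differ, and tests are edgeR's quasi-likelihood test with Benjamini-Hochberg adjustment over all 14909 genes. TMM factors were 0.742 to 0.808 in high-density and 1.11 to 1.49 in low-density libraries. The median log2 fold change of all genes for low against high density was 0.10 in both genotypes with TMM, and 0.67 for wild-type and 1.0 for H2R-deficient cells with total counts as the only scaling. The choice of scaling therefore moves each density value below, and the value with total counts is given beside it. Hrh2 was present in all libraries, at 118 and 41.3 CPM in wild-type high-density, 22.5 and 32.5 CPM in wild-type low-density, 35 and 17.5 CPM in H2R-deficient high-density and 12.1 and 7.6 CPM in H2R-deficient low-density cells. The genotype difference of Hrh2 did not pass at either density (log2 fold change -1.60, edgeR adjusted p = 0.192, and -1.48, edgeR adjusted p = 0.196).

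Most neutrophil markers were abundant in every library, and markers of some other cells moved with density. Of the 11 neutrophil markers, 10 had 1926 counts or more in each library, while Camp, a granule gene, had 126 to 827. All sums in this paragraph are CPM over all counts, without TMM, unless stated. The summed level of the 11 was 46656 to 50403 CPM in high-density and 25357 to 46469 CPM in low-density libraries, and none was at 0. The sum of 8 B cell markers was 34.5 to 48.9 CPM at high and 211 to 1265 CPM at low density, with none at 0. That of 8 dendritic cell markers was 7.1 to 25.2 against 233 to 946 CPM, with Siglech at 0 in 2 libraries. That of 12 proliferation genes was 84 to 127 against 223 to 589 CPM. The 13 macrophage markers summed to 248 to 540 CPM at high and 362 to 547 CPM at low density, ranges that overlap, with Gata6 at 0 in 1 library. By gene, 6 of 12 tested macrophage markers were called higher and 3 lower at low density in H2R-deficient cells (7 and 1 with total counts), and none in wild-type cells (1 higher with total counts). Of all tested genes 30% were called higher and 23.9% lower in H2R-deficient cells (51.6% and 2.6% with total counts). In wild-type cells 8.51% were called higher and 4.15% lower (32.3% and 0.832% with total counts). The 5 monocyte markers summed to 131 to 180 CPM at high and 204 to 231 CPM at low density, and the 10 T and NK cell markers to 3.48 to 14.7 against 18.8 to 23.1 CPM. With TMM both overlapped, at 162 to 243 against 137 to 207 CPM and at 4.31 to 19.8 against 12.6 to 18.7 CPM. Ly6c2 had the most counts of the monocyte markers in every library, and Csf1r and Adgre1 of the macrophage markers. Those 2 sums rest mainly on these genes. In H2R-deficient cells Ly6c2 fell at low density (-1.35, and -0.46 with total counts). Ccr2 (2.83 and 3.73), Ms4a6c (2.25 and 3.15) and Fcgr1 (1.09 and 2.00) rose. Adgre1 fell with TMM only (-0.78 and 0.13), while C1qb (1.30 and 2.19), C1qc (1.58 and 2.48) and Mrc1 (1.35 and 2.25) rose. By gene in H2R-deficient cells, 3 monocyte markers were called higher and 1 lower at low density (3 and 0 with total counts). Of the T and NK cell markers 3 were called higher and 1 lower there (5 and 1 with total counts). In wild-type cells 1 monocyte marker, Ccr2 (1.72, and 2.31 with total counts), was called higher under both scalings and 0 were called lower. The T and NK cell markers had 3 called higher and 0 lower in wild-type cells (4 and 0 with total counts). The 8 erythroid markers with a row summed to 21.6 to 183 CPM at high density and 0.207 to 1.74 CPM at low density, and Epor was at 0 in 6 libraries. The 5 eosinophil markers summed to 19.5 to 56.4 against 35.2 to 45.3 CPM. The 6 mast cell markers summed to 27.3 to 46 against 24.7 to 29.5 CPM. Of 4 tested eosinophil markers 1 was called higher and 2 lower at low density in each genotype (1 and 0 with total counts). At high density 1 was called lower between genotypes, where 0.208% of all genes were called. Of the mast cell markers 4 were lower at low density in H2R-deficient and 1 in wild-type cells (0 with total counts). The part of these cells in the results below was not tested. In bulk samples, fewer cells of a type and less RNA per cell cannot be told apart.

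On a scale per transcript length (TPM), the genes ranged over several orders of magnitude. Fth1 stood at 40754 to 60319 TPM (median 53446), ranked 1 to 3 of all genes, and gave 1.34% to 2.08% of all counts. Ftl1 followed at 7481 to 14754 TPM (median 9359), without overlap with Fth1. Below them came Hmox1 (median 631 TPM), Slc11a1 (624), Slc40a1 (60.5), Ncoa4 (34.7), Tfrc (25.6), Ireb2 (16.1), Slc11a2 (13) and Aco1 (3.99, from 0.66 to 8.4). Over the 8 libraries, Ftl1 did not overlap with Hmox1, nor Slc11a1 with Slc40a1. The remaining neighbours in that order overlapped and are not separated by their spread.

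**Figure D1:**
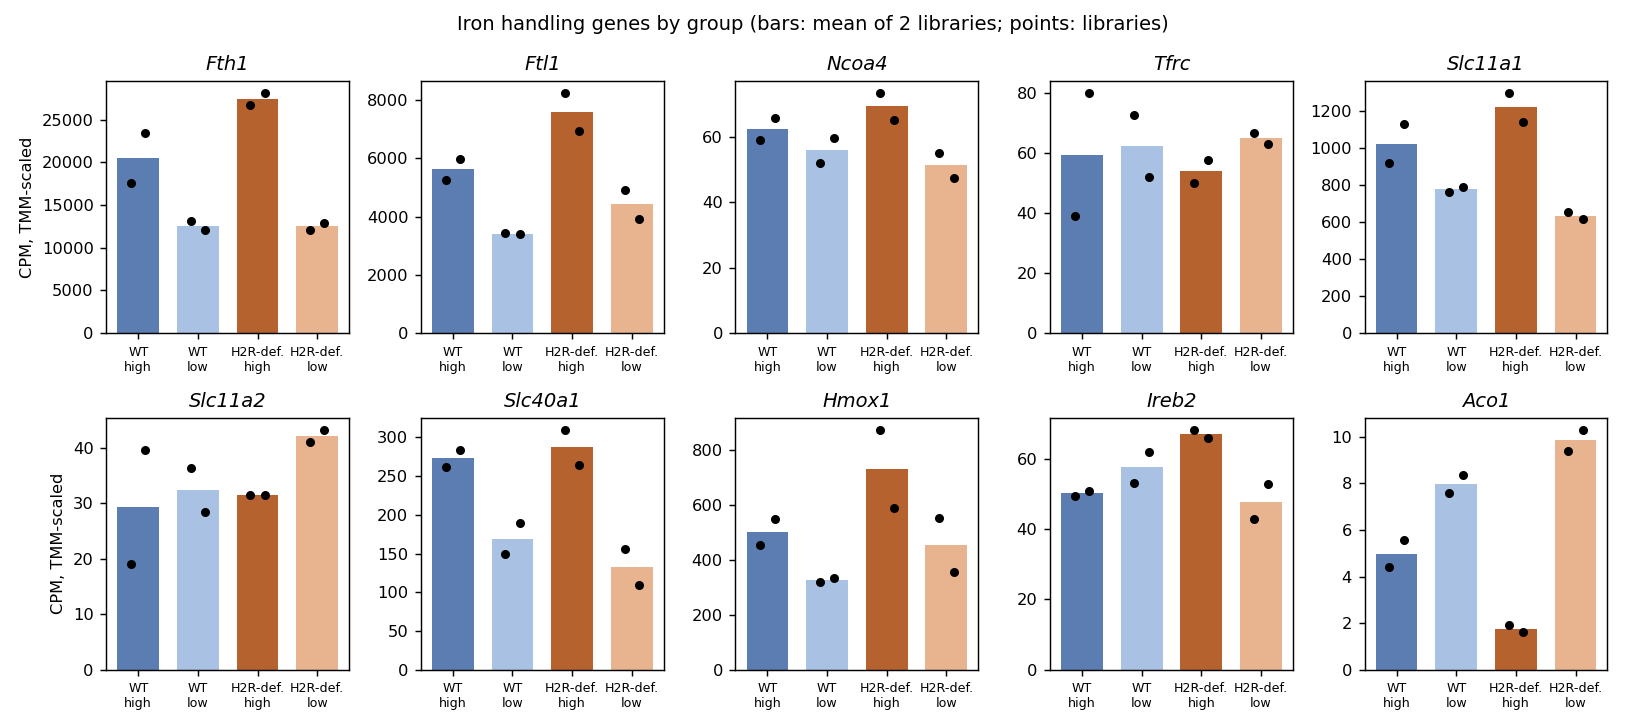
CPM over TMM-scaled library sizes (vertical axes from 0) of the 10 iron genes in the 4 groups; bars are means of 2 libraries and points are libraries. Fth1 lies at 26663 and 28101 CPM in H2R-deficient high-density cells and at 12122 and 12916 CPM in the low-density cells, while Aco1 lies at 1.93 and 1.6 against 9.39 and 10.3 CPM.

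In H2R-deficient cells, low-density neutrophils held less ferritin, Slc11a1 and Slc40a1 message and more Aco1 message than high-density neutrophils once libraries were scaled by TMM. Of the 10 genes, 6 fell (Fth1, Ftl1, Slc11a1, Slc40a1, Hmox1 and Ireb2) and 1 rose (Aco1), with a median log2 fold change of -0.59 against 0.10 for all genes. In this contrast 54% of all tested genes were called, 30% higher and 23.9% lower, so that a call alone does not set these genes apart. With total counts as the only scaling no gene of the set was lower and 3 were higher (Aco1, Slc11a2 and Tfrc), with a median of 0.32 against 1.0 for all genes, of which 51.6% were called higher and 2.6% lower (54.2% in all). Aco1 was the only one of the 10 called under both scalings. The plot of density differences shows both.

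**Figure D2:**
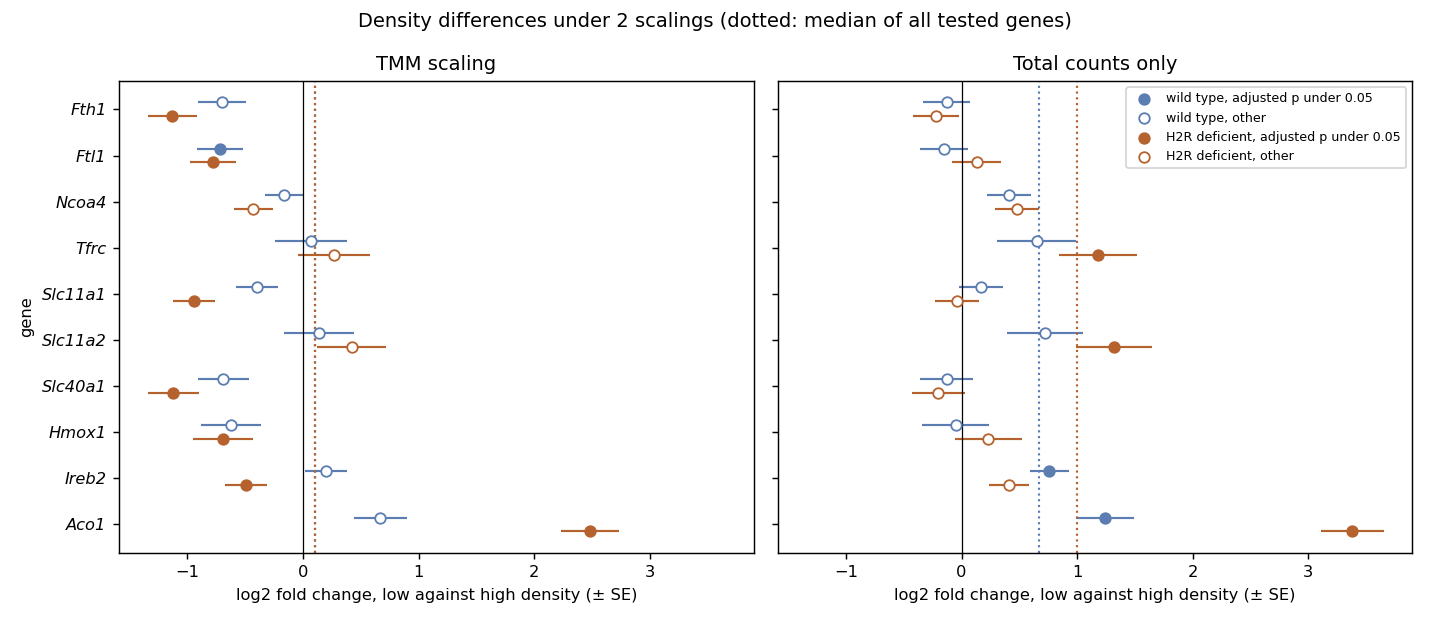
Log2 fold change of low against high density (horizontal axis, ± SE from the fitted model) of each iron gene in wild-type and H2R-deficient cells, with TMM scaling on the left and total counts only on the right; filled points have an adjusted p under 0.05 and dotted lines mark the median of all genes. In H2R-deficient cells, 6 genes are called lower on the left and none on the right, and Aco1 is called higher in both (2.48 and 3.38).

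Among the storage genes, Fth1 (chromosome 19, 9982703 to 9985092, plus strand, ENSMUSG00000024661) encodes the heavy chain, whose ferroxidase activity loads iron into the shell. In H2R-deficient cells it lay at 26663 and 28101 CPM at high and 12122 and 12916 CPM at low density. The groups did not overlap, and Fth1 fell 2.19-fold (log2 fold change -1.13 ± 0.21 SE, n = 2 per group, edgeR adjusted p = 0.00227). With total counts only the value was -0.22 and did not pass. Ftl1 (chromosome 7, 45457944 to 45459884, minus strand, ENSMUSG00000050708), the light chain, lay at 8243 and 6956 CPM at high and 4918 and 3921 CPM at low density. Both low-density libraries were below both high-density ones, and Ftl1 fell with TMM (-0.78 ± 0.20, edgeR adjusted p = 0.0104), while its value with total counts was 0.13. Without H2R-deficient high-density library 1 the Ftl1 call was lost (-0.65, edgeR adjusted p = 0.0772), as it was without low-density library 2 (-0.63, edgeR adjusted p = 0.0682), within a range of 0.000143 to 0.629 over 15 alternatives.

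Ncoa4 (chromosome 14, 32159865 to 32179855, plus strand, ENSMUSG00000056234) encodes the receptor that carries ferritin to lysosomes for breakdown. It lay at 73.4 and 65.3 CPM at high and 55.1 and 47.5 CPM at low density in H2R-deficient cells. Its groups did not overlap, but the difference did not pass (-0.43 ± 0.17, edgeR adjusted p = 0.0588), and it was 0.48 with total counts.

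Of the importers, Slc11a1 (chromosome 1, 74375195 to 74386062, plus strand, ENSMUSG00000026177), which moves divalent metal ions out of the phagosome, lay at 1296 and 1141 CPM at high and 652 and 615 CPM at low density. It fell 1.92-fold in H2R-deficient cells (-0.94 ± 0.18, edgeR adjusted p = 0.00262), with a value of -0.04 with total counts. Tfrc (chromosome 16, 32608920 to 32632794, plus strand, ENSMUSG00000022797), the transferrin receptor and the bearer of the 4 3' UTR hairpins above, lay at 50.1 and 57.9 CPM at high and 66.9 and 63.1 CPM at low density. The groups did not overlap, yet the difference was within its error (0.27 ± 0.31, edgeR adjusted p = 0.486), and with total counts it was 1.18 and passed (edgeR adjusted p = 0.016, with 0.016 to 0.757 over 15 alternatives). Slc11a2 (chromosome 15, 100387898 to 100425072, minus strand, ENSMUSG00000023030), which carries ferrous iron across the endosomal membrane, lay at 31.5 CPM in both high-density libraries and at 41 and 43.3 CPM at low density. Its difference was 0.42 ± 0.30 (edgeR adjusted p = 0.257), and 1.32 with total counts (edgeR adjusted p = 0.00701, with 0.00701 to 0.444 over 15 alternatives).

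Slc40a1 (chromosome 1, 45908068 to 45926523, minus strand, ENSMUSG00000025993) encodes ferroportin, the known cellular iron exporter and the target of hepcidin. In H2R-deficient cells it lay at 310 and 265 CPM at high and 156 and 109 CPM at low density. It fell 2.17-fold (-1.12 ± 0.22, edgeR adjusted p = 0.00279), with a value of -0.20 with total counts. Hmox1 (chromosome 8, 75093621 to 75100589, plus strand, ENSMUSG00000005413), haem oxygenase 1, releases iron from haem. It lay at 875 and 590 CPM at high and 553 and 355 CPM at low density, close to overlap. Hmox1 passed narrowly (-0.69 ± 0.26, edgeR adjusted p = 0.0492), and it was 0.23 with total counts. Leaving out high-density library 1 gave -0.37 and leaving out low-density library 2 gave -0.40, and neither value passed (edgeR adjusted p = 0.335 and 0.277, within 0.00699 to 0.53 over 15 alternatives). The Hmox1 call was also lost without any 1 of the 4 wild-type libraries, at -0.69 to -0.65.

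The messages of the 2 iron regulatory proteins moved in opposite directions in H2R-deficient cells with TMM, while both values were above 0 with total counts. Aco1 (chromosome 4, 40143081 to 40198338, plus strand, ENSMUSG00000028405) had 33 and 25 counts at high density and 339 and 291 at low density, or 1.93 and 1.6 against 9.39 and 10.3 CPM. These are the lowest and the highest Aco1 levels of the 8 libraries, and the increase was 5.56-fold (2.48 ± 0.25, edgeR adjusted p = 0.000221). It was 3.38 with total counts and 2.35 to 2.63 when each library was left out in turn. Ireb2 (chromosome 9, 54863789 to 54912530, plus strand, ENSMUSG00000032293) lay at 68.2 and 65.9 CPM at high and 42.8 and 52.8 CPM at low density. It fell with TMM (-0.49 ± 0.18, edgeR adjusted p = 0.0399) and was 0.41 with total counts. The Ireb2 call was lost without any 1 of the 4 H2R-deficient libraries (-0.65 to -0.34) or either wild-type low-density library (-0.48 and -0.46), and its adjusted p was 0.0183 to 0.281 over 15 alternatives. All 10 genes had groups that did not overlap, 7 lower and 3 higher, where 37.1% of all genes were lower and 43.9% higher without overlap.

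In wild-type cells, low density went with lower Ftl1 message, and the other genes did not pass. Of the 10 genes, 1 fell and 0 rose, with a median log2 fold change of -0.28, where 12.7% of all genes were called (8.51% higher and 4.15% lower). Ftl1 lay at 5245 and 5992 CPM at high and 3447 and 3388 CPM at low density, and fell 1.64-fold (-0.72 ± 0.20, edgeR adjusted p = 0.0492). The Ftl1 call was lost with total counts (-0.15) and when any 1 of the 8 libraries was left out (-0.81 to -0.62). Fth1 lay at 17509 and 23366 CPM at high and 13129 and 12023 CPM at low density, without overlap (-0.70 ± 0.21, edgeR adjusted p = 0.0573). Slc40a1 lay at 262 and 284 against 149 and 190 CPM (-0.69 ± 0.22, edgeR adjusted p = 0.066), and Hmox1 at 455 and 549 against 320 and 333 CPM (-0.62 ± 0.26, edgeR adjusted p = 0.134).

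With the library number as a block, which treats same-numbered libraries as pairs, 17.6% of all genes were called in wild-type cells and 6.53% were called lower. Of the 10 genes, 4 were called lower. They were Ftl1 (blocked edgeR adjusted p = 0.0244), Slc40a1 (0.0289), Fth1 (0.0389) and Hmox1 (0.0391), with ranges over 15 alternatives of 0.00175 to 0.612, 0.0152 to 0.694, 0.00129 to 0.633 and 0.0391 to 0.903. With total counts the values of these genes were -0.15, -0.13, -0.13 and -0.05, near 0 for all 4. Total counts called Aco1 and Ireb2 higher instead (1.24, edgeR adjusted p = 0.0061, and 0.76, edgeR adjusted p = 0.00967, with 0.0061 to 0.296 and 0.00967 to 0.838 over 15 alternatives), where 33.2% of all genes were called, 32.3% higher and 0.832% lower.

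The remaining wild-type differences did not pass with TMM. Aco1 lay at 4.42 and 5.55 CPM at high and 7.58 and 8.34 CPM at low density, without overlap (0.67 ± 0.23, edgeR adjusted p = 0.0772). Slc11a1 lay at 916 and 1130 against 764 and 788 CPM without overlap (-0.40 ± 0.18, edgeR adjusted p = 0.16). Ireb2 lay at 49.3 and 50.9 against 53.1 and 61.9 CPM (0.20 ± 0.18, edgeR adjusted p = 0.45). Ncoa4, Tfrc and Slc11a2 overlapped between densities. Wild-type high-density library 2 held 38.9 CPM of Tfrc and 19 CPM of Slc11a2, against 80.1 and 39.7 CPM in library 4, and the low-density libraries lay between those values at 72.9 and 52.1 CPM of Tfrc and 36.4 and 28.5 CPM of Slc11a2. Without high-density library 2 the density difference of Tfrc was -0.36, and without library 4 it was 0.68. In total 5 genes were lower and 2 higher without overlap, where 27% and 35.1% of all genes were.

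Whether H2R loss changed these genes within a density was the other question of the design. None of the 10 passed at high density, where edgeR called 31 genes in all (0.208%), or at low density, where it called 0 (0%) and 3128 had an unadjusted p under 0.05. DESeq2 called 677 and 870 genes and limma-voom 2 and 0. At high density Aco1 came closest: 4.98 ± 0.80 CPM in wild-type and 1.76 ± 0.24 CPM in H2R-deficient cells (SD, n = 2), a log2 fold change of -1.50 ± 0.25 (edgeR adjusted p = 0.055). The groups did not overlap. Aco1 passed with total counts (-1.56, edgeR adjusted p = 0.0473, with 0.49% of all genes called), and its adjusted p was 0.000377 to 0.256 over 14 alternatives, of which 3 passed. Fth1, Ftl1, Slc11a1, Hmox1 and Ireb2 were higher without overlap in H2R-deficient high-density cells, by log2 values of 0.25 to 0.55, and none of them passed. Without overlap, 21.1% of all genes were higher and 25.8% lower in that comparison.

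At low density the genotypes were close for Fth1, at 13129 and 12023 CPM in wild-type and 12122 and 12916 CPM in H2R-deficient cells (-0.01 ± 0.21, and 0.26 with total counts). Ftl1 lay at 3447 and 3388 against 4918 and 3921 CPM (0.37 ± 0.20, edgeR adjusted p = 0.321), and Hmox1 at 320 and 333 against 553 and 355 CPM (0.48 ± 0.26, edgeR adjusted p = 0.322). Aco1 lay at 7.58 and 8.34 against 9.39 and 10.3 CPM (0.31 ± 0.22, edgeR adjusted p = 0.446). H2R-deficient low-density library 1 held the highest Ftl1 and Hmox1 levels of the 4 low-density libraries. Of the 10 genes, 4 were higher and 2 lower without overlap, where 33.5% and 26.6% of all genes were.

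Whether density acted differently in the genotypes was tested as an interaction, and none of the 10 genes passed, with 0 genes called of all tested (0%), 3150 at an unadjusted p under 0.05, 946 called by DESeq2 and 0 by limma-voom. Aco1 had the largest value, 1.80 ± 0.34 (edgeR adjusted p = 0.0906): its density difference was 0.67 in wild-type cells and 2.48 in H2R-deficient ones. It passed with total counts (2.13, edgeR adjusted p = 0.0387, with 4.26% of all genes called), with no filter on low counts and with DESeq2, and its adjusted p was 0.00196 to 0.275 over 14 alternatives. The interaction was -0.69 ± 0.25 for Ireb2 (edgeR adjusted p = 0.163), -0.54 ± 0.26 for Slc11a1 (edgeR adjusted p = 0.262) and -0.43 for both Fth1 and Slc40a1 (edgeR adjusted p = 0.434 and 0.449). So the larger density values in H2R-deficient than in wild-type cells were not shown to differ between genotypes. The density comparisons and the genotype comparisons share libraries.

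Ratios of 2 genes within a library do not depend on the scaling between libraries, and they are given per transcript length and as descriptions. The ratio of Ireb2 to Aco1 was 16.8 and 19.6 in H2R-deficient high-density cells and 2.16 and 2.43 in H2R-deficient low-density cells. In wild-type cells it was 5.29 and 4.35 at high and 3.32 and 3.52 at low density. The H2R-deficient high-density libraries stood above the other 6, and at low density both H2R-deficient libraries stood below both wild-type ones. The ratio of Fth1 to Ftl1 was 3.81 to 6.25 over the 8 libraries, and the densities of a genotype overlapped in it. The ratio of Fth1 to Tfrc, storage against uptake, was 3215 and 2083 in wild-type high-density, 1285 and 1648 in wild-type low-density, 3800 and 3464 in H2R-deficient high-density and 1294 and 1461 in H2R-deficient low-density libraries. It was lower in each low-density library than in any high-density one.

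Set against the 11 neutrophil markers in the same library, Fth1 gave a different picture from its CPM. S100a8 and S100a9 had the most counts of these markers in every library, so the summed counts rest mainly on them. Fth1 counts equalled 28.8% and 40.4% of the summed marker counts in wild-type high-density, 45.3% and 28.8% in wild-type low-density, 40.8% and 41.4% in H2R-deficient high-density and 71.3% and 50.7% in H2R-deficient low-density libraries. In H2R-deficient cells this share was higher at low density, the opposite of the TMM-scaled Fth1 level. Of the 11 markers 9 fell in that contrast, with a median log2 fold change of -1.64 (-0.74 with total counts), where 23.9% of all genes were called lower. With total counts 8 of the 11 were called lower, where 2.6% of all genes were. In H2R-deficient low-density libraries Ftl1 counts equalled 28.9% and 15.4% of the marker counts, against 12.6% and 10.3% at high density. Slc40a1 counts equalled 0.916% and 0.426% at low and 0.474% and 0.391% at high density, values that overlap.

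**Figure D3:**
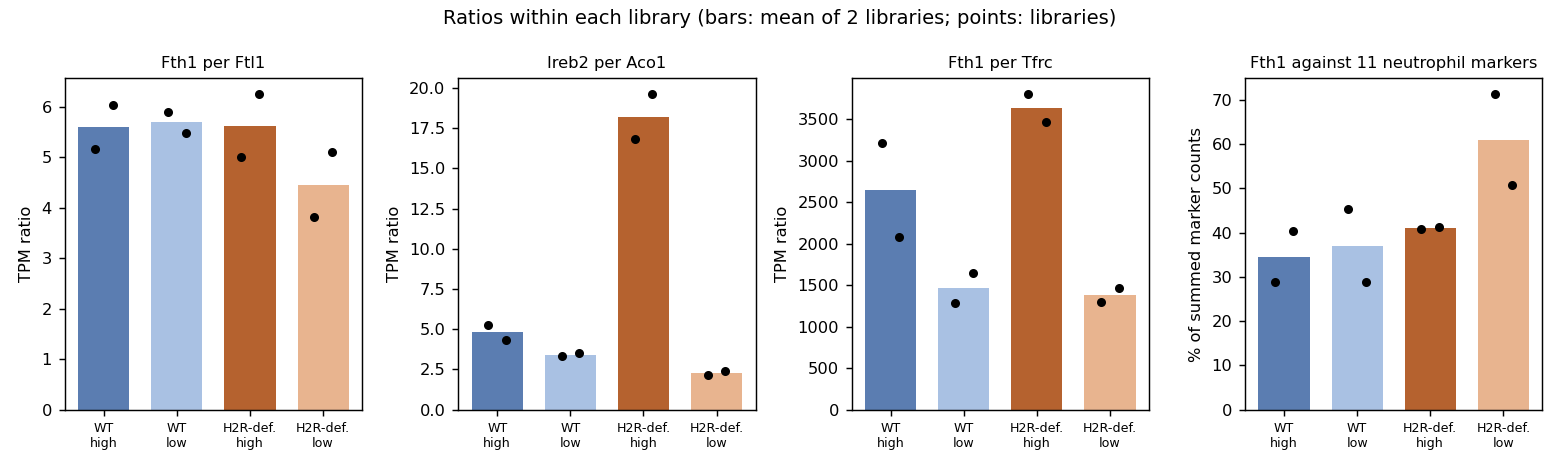
Ratios within each library, in 4 groups (bars are means of 2 libraries, points are libraries, axes start at 0): Fth1 per Ftl1, Ireb2 per Aco1 and Fth1 per Tfrc as ratios of TPM, and Fth1 counts as a percentage of the counts of 11 neutrophil markers. Ireb2 per Aco1 reaches 16.8 and 19.6 in H2R-deficient high-density cells, and 2.16 and 2.43 in the low-density cells.

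The remaining genes of iron and haem metabolism were read in 7 lists, and the plot of those lists gives each gene. The background of called genes is that given above for each comparison. One list held NRF2 and BACH1, the activator and the haem-sensitive repressor that control Hmox1 and both ferritin genes, with their partners and some of the genes they regulate. In H2R-deficient cells 0 of its 13 genes were higher and 7 lower at low density, with a median of -0.54 against 0.10 for all genes. Of the 5 factors and partners 4 were lower (Nfe2l2, Bach1, Mafg and Mafk), and of the 8 regulated genes 3 were (Slc7a11, Txnrd1 and G6pdx), while Nqo1, Gclc, Gclm, Srxn1 and Prdx1 did not pass. Bach1 itself lay at 628 and 838 CPM at high and 227 and 298 CPM at low density (-1.48 ± 0.21, edgeR adjusted p = 0.000656). Nfe2l2, which encodes NRF2, lay at 1332 and 1217 against 498 and 505 CPM (-1.35 ± 0.20, edgeR adjusted p = 0.000791), and Slc7a11, the cystine importer, at 3683 and 5160 against 2054 and 2282 CPM (-1.03 ± 0.22, edgeR adjusted p = 0.00454). Both activator and repressor messages were thus lower. The number called was 4 to 7 when each library was left out in turn. With total counts the list had 3 genes higher and 1 lower, and Bach1, Nfe2l2 and Slc7a11 were -0.58, -0.44 and -0.12. In wild-type cells 2 of 13 fell, Mafk (-1.28 ± 0.30, edgeR adjusted p = 0.0296), a small Maf partner of both factors, and Nfe2l2 (-0.80 ± 0.20, edgeR adjusted p = 0.0348), with -0.71 and -0.22 with total counts. Neither was called without wild-type high-density library 2 (-1.03 and -0.56), low-density library 2 (-1.08 and -0.71) or low-density library 4 (-1.51 and -0.89), and Nfe2l2 was not called without any 1 of the 4 H2R-deficient libraries (-0.80 each).

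For IRP turnover, 1 of 4 genes rose and 1 fell in H2R-deficient cells, with a median of -0.08. Fbxl5, the iron-sensing ubiquitin ligase subunit that marks IRP2 for degradation, lay at 1785 and 1281 CPM at high and 681 and 624 CPM at low density (-1.23 ± 0.21, edgeR adjusted p = 0.00151), with -0.33 with total counts. Its partner Skp1a rose (0.75 ± 0.17, edgeR adjusted p = 0.00494), with 1.66 with total counts. With total counts 2 of the 4 were called higher and 0 lower. In wild-type cells 0 of 4 passed, but Fbxl5 was called lower when library number was a block (-0.70), and 2 genes were called higher with total counts, Skp1a (0.67) and Herc2 (0.61).

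Of the haem synthesis genes, 5 of 9 were called higher and 2 lower at low density in H2R-deficient cells, with a median of 1.08 (1.99 with total counts). Alas1, the first and rate-limiting step outside erythroid cells, lay at 731 and 649 CPM at high and 234 and 262 CPM at low density and fell (-1.48 ± 0.18, edgeR adjusted p = 0.000353, and -0.58 with total counts). Alad, which acts at the next step, rose from 0.35 and 0.255 to 5.74 and 4.81 CPM (4.09 ± 0.50, edgeR adjusted p = 0.000364). Its high-density values rest on 6 and 4 counts, close to the floor of 3 counts. With total counts Alad was 4.99. In wild-type cells 3 of 9 rose and 1 fell, with a median of -0.09. Alad (2.09 ± 0.47, edgeR adjusted p = 0.0261) and Uros (1.72 ± 0.39, edgeR adjusted p = 0.0268) were among those that rose, and with total counts they were 2.66 and 2.28. At high density in wild-type cells Alad had 4 and 12 counts and Uros 9 and 13. Without wild-type high-density library 2, low-density library 2 or low-density library 4 neither Alad nor Uros was called (Alad 1.52 to 2.16, Uros 1.48 to 1.85). Uros was not called without H2R-deficient low-density library 1 or 2 either (1.72 each). Alas2, the erythroid isoenzyme, had 41 and 112 counts at high density and 1 and 2 counts at low density in wild-type cells. It was called lower (edgeR adjusted p = 0.00681), and it is itself 1 of the erythroid markers summed above. In H2R-deficient cells Alas2 had 27 and 10 against 1 and 0 counts and was also called lower (edgeR adjusted p = 0.00171).

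For iron uptake, reduction and carriers, 4 of 12 measured genes rose and 3 fell in H2R-deficient cells, with a median of 0.85, against 7 higher and 1 lower with total counts, with a median of 1.75. The median was 0.60 with the 2 genes at 0 in the high-density libraries, Steap1 and Cybrd1, set against the floor of 3 counts per library and TMM scaling. Steap4, a metalloreductase, lay at 708 and 542 CPM at high and 183 and 173 CPM at low density (-1.81 ± 0.20, edgeR adjusted p = 0.000257). Lcn2, the lipocalin that captures bacterial siderophores, lay at 6495 and 5218 against 2222 and 2379 CPM (-1.35 ± 0.24, edgeR adjusted p = 0.00171), while Slc39a14, an importer of iron that is not bound to transferrin, rose from 8.7 and 15.2 to 34.3 and 45.6 CPM (1.74 ± 0.30, edgeR adjusted p = 0.00142). With total counts Steap4, Lcn2 and Slc39a14 were -0.91, -0.45 and 2.65. Steap4 was also the 1 gene of this list that fell in wild-type cells (-1.17 ± 0.19, edgeR adjusted p = 0.0116, and -0.59 with total counts), and its call was lost without wild-type high-density library 2 (-1.20), low-density library 2 (-1.31) or low-density library 4 (-1.04). A block on library number raised that list's wild-type calls from 1 to 3, and total counts gave 1 higher and 0 lower. In the list of export and the hepcidin axis, 2 of 4 measured genes rose in H2R-deficient cells, with a median of 1.54. They were Cp, the ferroxidase ceruloplasmin (2.04 ± 0.61, edgeR adjusted p = 0.022, and 2.98 with total counts), at 11.1 and 3.68 CPM in the low-density libraries, and Bmp6, which had 0 counts in both high-density libraries and 54 over the low-density ones. Neither was called without high-density library 1 or 2 or low-density library 1, and Cp was 1.04 without that last library.

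In haem transport and breakdown, 2 of 9 measured genes rose and 2 fell in H2R-deficient cells, with a median of 0.17, against 5 higher and 0 lower with total counts (median 1.07). In wild-type cells 0 of 9 passed, but Hp was called lower when library number was a block (-0.98), and Cd163 (1.46) and Lrp1 (0.81) were called higher with total counts. Hp, the haemoglobin-binding haptoglobin, lay at 1534 and 916 CPM at high and 471 and 436 CPM at low density (-1.43 ± 0.32, edgeR adjusted p = 0.00542), and Hmox2, the constitutive haem oxygenase, at 119 and 102 against 54.5 and 50.4 CPM (-1.07 ± 0.23, edgeR adjusted p = 0.00435). Lrp1, a receptor for haem bound to haemopexin, rose from 42.7 and 50.9 to 108 and 97.4 CPM (1.14 ± 0.18, edgeR adjusted p = 0.000968). With total counts Hp, Hmox2 and Lrp1 were -0.53, -0.16 and 2.05. Lrp1 was the only gene of the 7 lists called between genotypes with TMM: at high density it lay at 123 and 116 CPM in wild-type and 42.7 and 50.9 CPM in H2R-deficient cells (-1.35 ± 0.18, edgeR adjusted p = 0.0374, and -1.42 with total counts). It was still called without wild-type low-density library 2 and lost when any other library was left out (-1.48 to -1.24). With total counts Slc39a14 was also called lower in that comparison (-1.72, edgeR adjusted p = 0.0468, against 0.0648 with TMM). Lrp1 is also well expressed by macrophages. Of the 13 macrophage markers 12 were tested in that comparison and none was called, with a median of -1.57. With total counts C1qb (-1.89), C1qc (-1.86) and Mrc1 (-1.91) were called lower, and the median was -1.64. The part of macrophages in the Lrp1 difference was not tested.

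In mitochondrial iron and iron-sulfur assembly, 8 of 16 measured genes rose and 1 fell in H2R-deficient cells, with a median of 0.94, against 13 higher and 0 lower with total counts (median 1.84). In wild-type cells 0 of 16 passed, but 6 were called higher with total counts (medians 0.25 and 0.82), and Fdx1, a ferredoxin, was called higher when library number was a block (2.89). Fdx1 had 10 and 11 counts at high density and 30 and 305 at low density in wild-type cells. The cysteine desulfurase Nfs1 rose from 3.15 and 3.32 to 8.78 and 9.79 CPM (1.52 ± 0.22, edgeR adjusted p = 0.000734), and Abcb8 from 0.467 and 0.702 to 3.96 and 3.92 CPM (2.75 ± 0.46, edgeR adjusted p = 0.00131). With total counts they were 2.42 and 3.65. Abcb8 had 8 and 11 counts in the high-density libraries. The gene that fell was Slc25a37, the mitochondrial iron importer mitoferrin 1, from 340 and 252 to 188 and 151 CPM (-0.81, edgeR adjusted p = 0.0126, and 0.10 with total counts). Leaving out high-density library 1 gave -0.57 for Slc25a37, leaving out low-density library 2 gave -0.65, and neither passed.

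**Figure D4:**
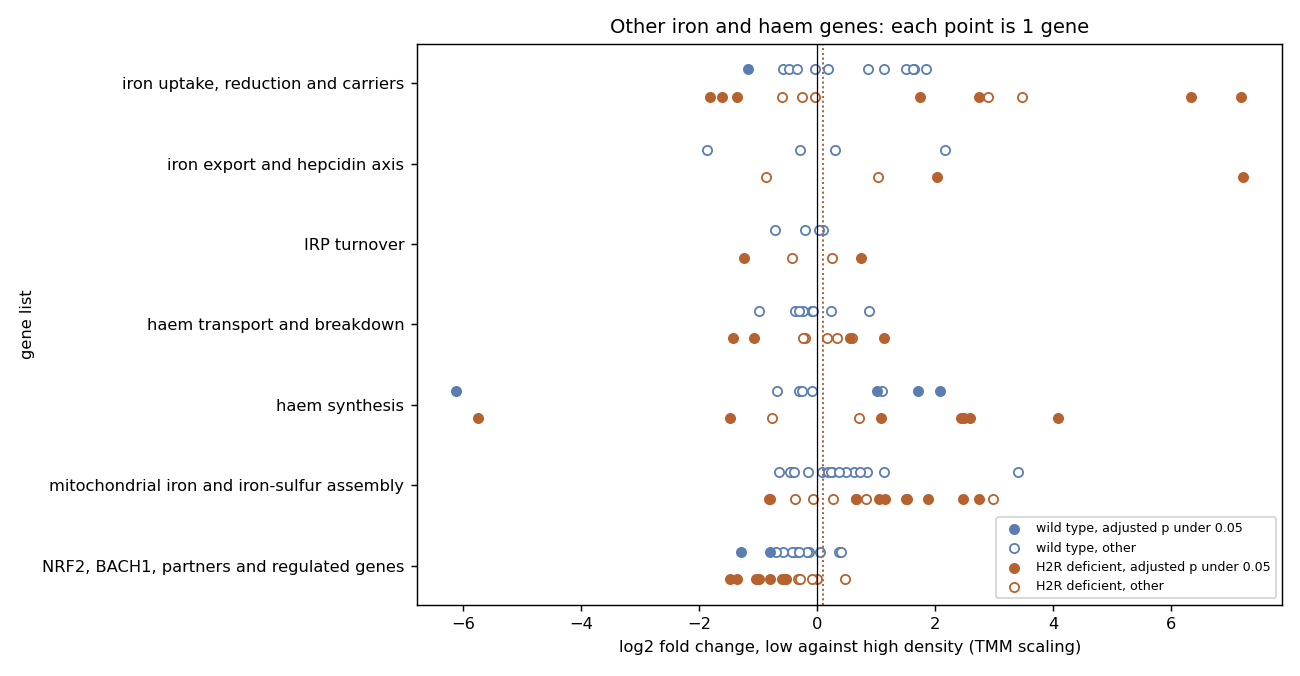
Log2 fold change of low against high density with TMM scaling (horizontal axis) of each measured gene in 7 iron and haem lists, in wild-type and H2R-deficient cells; filled points have an adjusted p under 0.05 and dotted lines mark the median of all genes. In H2R-deficient cells the list of NRF2, BACH1, their partners and regulated genes has 7 filled points below 0 and 0 above, and the mitochondrial list has 8 above and 1 below.

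The genes most like a member over the 8 libraries were found among 2648 genes by Pearson's r of log2 CPM, as a description over libraries that share scaling and groups. For Fth1 they were Npepps (r = 0.991), Pias4 (0.989) and Arl8b (0.987). For Slc40a1 they were Washc2 (0.980), Nod1 (0.976) and Cd82 (0.974), and for Tfrc they were Psma6 (0.852), Eif3a (0.852) and Uap1 (0.834). Among the 10 genes, the highest r was that of Ftl1 and Hmox1 (0.96) and the lowest that of Fth1 and Aco1 (-0.91). Tfrc and Slc11a2, the importers of the transferrin route, had r = 0.88.

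Ferritin genes have near-identical copies, and reads could be split among them. Of 14 other rows with ferritin names, 9 had 0 counts in all libraries, and all of these had Fthl17 names. The other 5 (Fth-ps2, Fth-ps3, Ftl1-ps1, Ftl1-ps2 and Ftl2-ps) had counts. As the handling of multi-mapping reads is not given, these counts do not show how many reads are shared. The largest, Ftl1-ps1, had 117 to 218 counts, equal to 0.132% of the counts of Ftl1, and Fth-ps2 had 28 to 97. Ftl1 overlaps Gm10252 on the opposite strand, which had 370 to 732 counts, and Slc11a2 overlaps Gm5475, with 1 to 6 counts. Without the strand setting, reads of such pairs cannot be told apart.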

How the data were processed

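Total RNA of 8 libraries was sequenced. The deposited values are unnormalized read counts for each gene as featureCounts writes them, per the file headers, with gene length and coordinates. GRCm38, STAR 2.5.2b and, for counting, featureCounts (Subread 1.5.2) are named in the submitters' processing notes, as are Trimmomatic 0.36 and bcl2fastq 2.17.1.14. The sources used here do not give the handling of strand or of multi-mapping reads.

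Of 49315 identifiers, 48970 matched a symbol in GENCODE M21, and 44772 had that annotation's coordinates. Genes were kept with filterByExpr by group (14909), scaled by TMM and fitted with edgeR 4.0.16 (R 4.3.3), quasi-likelihood with robust dispersion, 1 mean per group over all 8 libraries, leaving 4 residual degrees of freedom and a biological coefficient of variation of 0.236. An adjusted p under 0.05 was called. TPM used the deposited lengths. The 2 libraries of each group differed by more than sampling noise (chi-square per degree of freedom 33.7 to 53.5). Library numbers come from the labels' titles. Deviations of same-numbered libraries from their group means correlated at 0.155 in wild-type and 0.326 in H2R-deficient pairs. With 2 libraries per group the pairs of a genotype mirror each other, and swapping the numbers would only change the sign. These values therefore cannot decide whether the numbers pair the densities. The main fit used no block, and the block on library number is given as an alternative. Genotypes share only number 2, so no block was used between them. The fit was also run on simulated counts with 200 planted genes, changed up and down alike, and otherwise equal group means. That setting does not probe the choice of scaling, and its outcome is not reported here. An exact test of 2 against 2 libraries cannot pass 0.05, and all p-values are from models over all genes.

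The 10 genes and all lists were chosen with earlier results of these data known. Named genes are all 10 members and, in each list and contrast, up to 3 called genes with the lowest adjusted p and a mean in 1 of the compared groups of 1 CPM or more. Bmp6 and Slc25a37 were named after their values were seen. Some genes that this rule would name are not reported here. Genes most like Fth1, Slc40a1 and Tfrc were sought among genes whose mean was 50 CPM or more. Alternatives were total counts only, size factors of DESeq2 1.42.0 in edgeR, no filter, DESeq2, limma-voom (limma 3.58.1), the compared groups only, the replicate block, and leaving out each library.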

Additional observations from a re-analysis of the deposited data

How the results depend on the processing

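Of the 10 iron genes, 1 was called for density in wild-type cells. The number was 2 with total counts only, with DESeq2's size factors in edgeR, with no filter and with limma-voom, 3 with DESeq2, 4 with the replicate block and 0 with only the compared libraries. It was 0 when each library was left out in turn (lowest 0, highest 0). In H2R-deficient cells 7 were called, against 3 with total counts only and 4 to 6 when each library was left out, with 4 without high-density library 1 and 4 without low-density library 2. The count at high density between genotypes was 0, and 1 (Aco1) with total counts, with no filter or with DESeq2. The same 3 alternatives gave 1 (Aco1) for the genotype difference of the density effect. At low density between genotypes the count was 0 under all alternatives run. The replicate block changed no call on the 10 genes other than the wild-type ones given above.

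With total counts the log2 fold change changed sign, for density in wild-type cells, in Ncoa4 (0.41) and Slc11a1 (0.17), and in H2R-deficient cells in Ftl1 (0.13), Ncoa4 (0.48), Hmox1 (0.23) and Ireb2 (0.41). Between genotypes at low density it did so in Fth1 (0.26) and Ncoa4 (0.16), and for the difference of effects in Ftl1 (0.28), Ncoa4 (0.07) and Hmox1 (0.28). For the low-density Fth1 difference, DESeq2 and its size factors gave 0.00 and no filter gave 0.02. Total counts differ from TMM by construction. Of the called list genes, Slc25a37 (0.10), Mafg (0.32), Mafk (0.11) and Txnrd1 (0.37) changed sign with total counts in H2R-deficient cells. These list alternatives were chosen after seeing the data. The cause of the other changes was not tested.

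Leaving out 1 library gave values on both sides of 0, from lowest to highest: for density in wild-type cells, Tfrc -0.36 to 0.68 and Slc11a2 -0.29 to 0.77; between genotypes at high density, Tfrc -0.57 to 0.47, Slc11a2 -0.33 to 0.72 and Slc40a1 -0.05 to 0.18; at low density, Fth1 -0.09 to 0.06 and Tfrc -0.19 to 0.32. For the difference of effects they were Ftl1 -0.23 to 0.09, Tfrc -0.41 to 0.63, Slc11a2 -0.34 to 0.71 and Hmox1 -0.42 to 0.25. A group left with 1 library is assumed to vary like the others. Over all genes, the calls for density in wild-type cells were 1888, and 123 without wild-type high-density library 2, 223 without wild-type low-density library 2, 608 with only the compared libraries, 3361 with no filter and 4946 with total counts. At high density between genotypes they were 31, and 0 to 40 when a library was left out and 1095 with no filter. At low density they were 0, and 121 without wild-type low-density library 2 and 1360 with no filter, and for the difference of effects 0, and 635 with total counts, 1210 with no filter and 28 with the block. At Aco1's depth of 25 to 339 counts, small changes are less certain than those of Fth1.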
